A study of Saccharomyces cerevisiae with 4 samples.

Results

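Small nucleolar RNAs (snoRNAs) and the RNAs of the spliceosome were described in RNA-seq of sorted yeast spores. Members were all features of the deposited count table whose identifier begins with snR, which are 81 of 7132 listed features. They comprise 76 snoRNAs, of which 47 belong to the box C/D class and 29 to the box H/ACA class, and 5 entries for spliceosomal RNAs. The spliceosomal entries are snR6 (U6), snR14 (U4), snR19 (U1) and the long and short forms of U5, snR7-L and snR7-S. U2, also known as snR20, is listed under the name LSR1, so it falls outside the identifier rule and is shown beside the others. The spores came from a Saccharomyces cerevisiae diploid of the SK1 background. In this strain the CUP1 promoter, which responds to copper, drives IME1, the inducer of meiosis, and a cassette with mCherry under the GPD1 promoter and a hygromycin resistance gene (hph) is integrated at MATa. After 7 days in copper-containing sporulation medium at 30 °C, spores were freed from asci and sorted by color, red spores being a and those without color α. All groups thus share 1 parent strain, medium and age and differ by the inherited MAT allele with its cassette. Sporulation and sorting were done on 2 occasions, so that there are 2 libraries of a spores (replicates 1 and 2) and 2 of α spores (replicates 1 and 2). Spores were assigned to a or α by color, following the study; the strain labels go another way, with MATa at 1 sample, the first non-red replicate, and MATα at the 3 others.

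Box C/D snoRNAs pair with rRNA and direct 2′-O-methylation by the methyltransferase Nop1 (fibrillarin in animals), and box H/ACA snoRNAs direct conversion of uridine to pseudouridine by Cbf5 (dyskerin in animals). A few, including U3 (snR17a and snR17b), U14 (snR128), snR30, snR10 and snR190, act in the cleavage or folding of the rRNA precursor. U1, U2, U4, U5 and U6 form the core of the spliceosome, which removes introns from pre-mRNA. In yeast most snoRNAs are transcribed from genes of their own, a few are released from introns of host genes, and several box C/D RNAs are cut from precursors that hold more than 1 of them. The mature RNAs end without a poly(A) tail.

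Depth and markers of the sort were examined first. The libraries of a spores held 35937755 and 27468051 reads in total (replicates 1 and 2), against 45697828 and 25493760 for those of α spores. The deposited values are estimated counts, and an RNA was called detected in a library with at least 3 reads, the amount that a count of 0 still allows. This floor corresponds to between 0.068 and 0.116 CPM (counts scaled to a library total of 1000000) and covers counting error only. The cassette gene hph had 71566 and 67902 reads in a spores, against 4348 and 972 in α spores, and mCherry had 7814 and 14452, against 552 and 0. Feature YCR097W, taken here for MATa1, had 1054 and 2622, against 0 and 218. Silent mating-type cassettes hold copies of the MATa1 gene, so the locus that these reads came from is not settled. The treatment of reads with several positions is not given. The series text describes RNA depleted of rRNA, whereas the protocol names an mRNA-seq kit with 100 ng of total RNA as input. Members took 0.0349% and 0.0448% of all reads from a spores, against 0.0408% and 0.0442% from α spores.

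To begin with sequence, 3 pairs of snoRNAs are shown to compare an RNA that was detected in all 4 libraries with one of the same class at 0 in every library. Sequences were read from the R64 genome of RefSeq, 5′ to 3′ and as DNA letters. Capitals mark the C box (TGATGA) and the D box (CTGA) of box C/D RNAs and the ACA box of box H/ACA RNAs. The first pair lies in introns of host genes, snR18 in EFB1 (chrI:142367-142468, plus strand) and snR54 in IMD4 (chrXIII:163535-163620, minus strand). The second pair is cut from 1 precursor, snR190 (chrX:139761-139950, minus strand) and snR128 (chrX:139566-139691, minus strand), which lie 69 nt apart. The last pair has genes of its own, snR9 (chrXV:407948-408134, minus strand) and snR189 (chrIII:178610-178798, minus strand).
snR18, detected in 4 libraries: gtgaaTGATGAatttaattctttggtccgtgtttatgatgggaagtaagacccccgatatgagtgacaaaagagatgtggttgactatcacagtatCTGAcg
snR54, at 0 in 4 libraries: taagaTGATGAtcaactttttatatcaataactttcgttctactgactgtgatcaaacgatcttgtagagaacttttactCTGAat
snR190, detected in 4 libraries: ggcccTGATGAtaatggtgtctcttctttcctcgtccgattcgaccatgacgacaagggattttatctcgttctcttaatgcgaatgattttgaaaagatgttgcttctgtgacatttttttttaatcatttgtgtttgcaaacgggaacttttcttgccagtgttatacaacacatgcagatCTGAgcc
snR128, at 0 in 4 libraries: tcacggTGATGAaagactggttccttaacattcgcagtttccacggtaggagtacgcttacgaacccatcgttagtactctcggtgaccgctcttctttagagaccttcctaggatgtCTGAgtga
snR9, detected in 4 libraries: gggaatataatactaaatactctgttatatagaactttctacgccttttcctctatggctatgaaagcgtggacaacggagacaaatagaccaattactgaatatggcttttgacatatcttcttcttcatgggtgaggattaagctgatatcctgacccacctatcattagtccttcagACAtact
snR189, at 0 in 4 libraries: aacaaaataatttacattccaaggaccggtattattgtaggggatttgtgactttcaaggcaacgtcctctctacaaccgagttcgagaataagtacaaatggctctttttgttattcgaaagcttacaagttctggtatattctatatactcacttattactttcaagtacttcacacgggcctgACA
Both members of each pair carry the boxes of their class. Across the classes, TGATGA was found in the first 25 bases of 36 of 47 box C/D RNAs (76.6%), 1 of 29 box H/ACA RNAs and 1.15% of 6087 other placed features. CTGA was found in the last 25 bases of 45 of 47 box C/D RNAs (95.7%), 2 of 29 box H/ACA RNAs and 10.8% of other features. ACA was found in the last 8 bases of 17 of 29 box H/ACA RNAs (58.6%), 3 of 47 box C/D RNAs and 5.73% of other features. Only the transcribed strand was searched, and matches can overlap, as in snR189, where CTGA and ACA share a base.

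Most snoRNAs were undetected in at least 1 library. Of 76 snoRNAs, 15 were detected in all 4 libraries (19.7%), 41 in 1 to 3 libraries and 20 in none (26.3%), and 18 of these 20 were listed at 0 throughout. The number of members detected was 33 and 35 in a spores, against 38 and 40 in α spores. The classes had different shares. Of 47 box C/D RNAs, 5 were detected in all 4 libraries (10.6%) and 18 in none (38.3%). Of 29 box H/ACA RNAs, 10 were detected in all 4 libraries (34.5%) and 2 in none (6.9%), which were snR85 and snR189. In single libraries, box C/D RNAs detected numbered 11 and 18 in a spores, against 15 and 17 in α spores, and box H/ACA RNAs 21 and 15, against 21 and 21. Box H/ACA detection was thus lowest in a replicate 2 and box C/D detection lowest in a replicate 1. For comparison, 5594 of 6008 protein-coding genes were detected in all 4 libraries (93.1%), as were 4 of 299 tRNA features (1.34%).

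**Figure D1:**
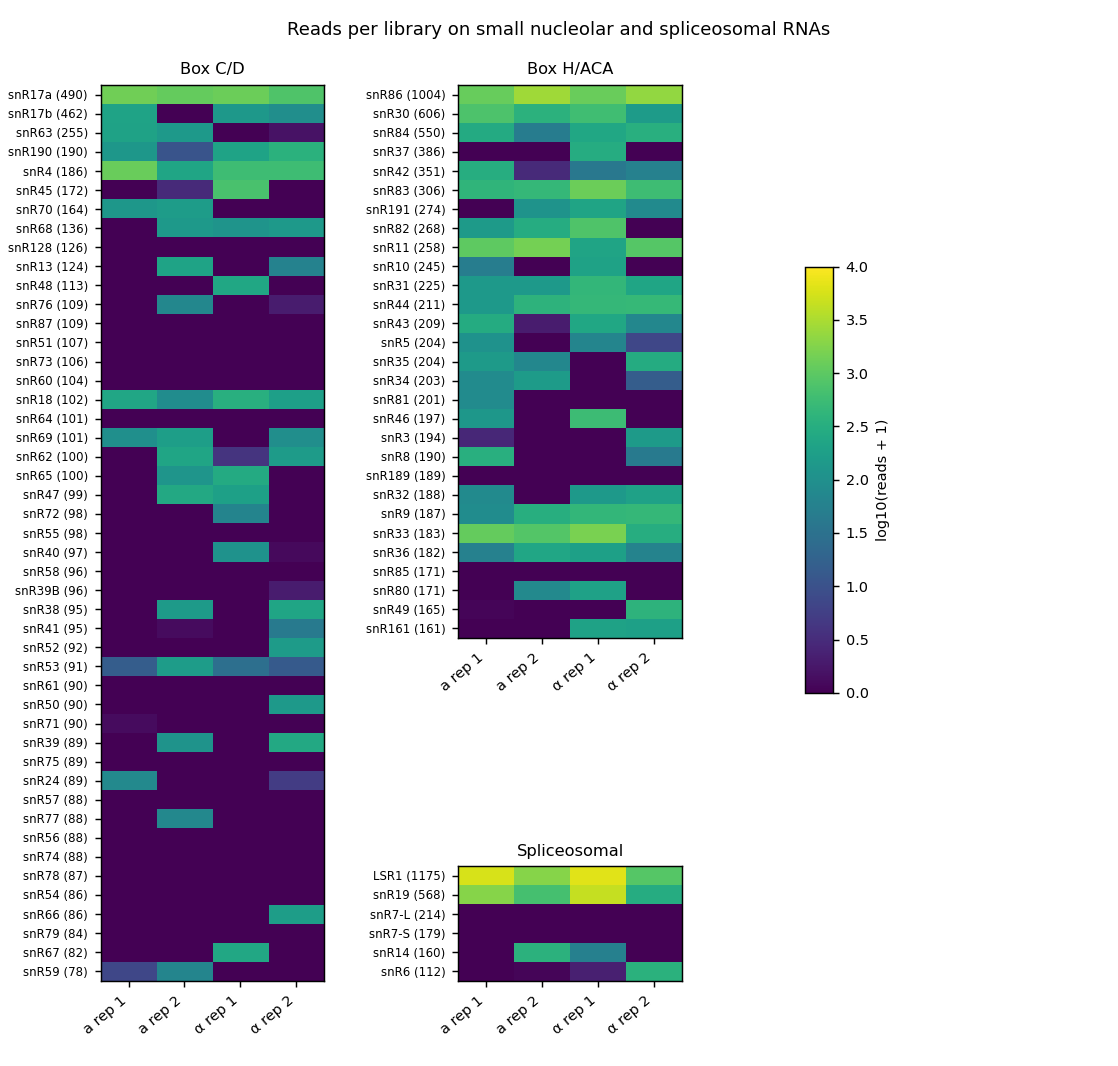
Reads on each RNA, shown as log10(reads + 1) by color, in the 4 libraries (columns, a spores left of α spores), with box C/D snoRNAs, box H/ACA snoRNAs and spliceosomal RNAs (LSR1 is U2) in separate panels and the annotated length in parentheses. The lower part of the box C/D panel, which holds the shortest RNAs, is mostly at 0, and neighboring columns often differ between 0 and more than 40 reads.

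Most values were either at 0 or well above the floor. Of the 304 values that 76 snoRNAs have in 4 libraries, 154 were 0, 11 lay above 0 but under 3 reads, 10 lay from 3 to under 40 reads and 129 were 40 reads or more. The median of the 139 values of at least 3 reads was 190 reads. Detection in exactly 1 library was seen for 15 RNAs, where they had between 43 and 698 reads (median 151). The highest of these was snR45, which guides acetylation of small subunit rRNA, with 0 and 2 reads in a spores, against 698 and 0 in α spores. A similar case is snR49, a box H/ACA RNA, with 0.14 and 0 reads in a spores, against 0 and 388 in α spores. Among RNAs missing from a single library, the largest sum was that of snR82, a box H/ACA RNA, with 150 and 294 reads in a spores, against 797 and 0 in α spores. The box H/ACA RNA snR43 had 289 and 1 reads in a spores, against 237 and 70 in α spores, and snR35 had 148 and 69, against 0 and 284. The library without the RNA was thus α replicate 2 for snR82, a replicate 2 for snR43 and α replicate 1 for snR35. The box C/D RNA snR47 was missing from 2 libraries, with 0 and 261.5 reads in a spores, against 190 and 0 in α spores. The pattern was shared by other features of similar abundance. Summed over the libraries, the 41 RNAs with mixed detection had an interquartile range of 158 to 403.5 reads. Among 211 other listed features with a sum in this range, 198 were under 3 reads in at least 1 library (93.8%). The range was set from RNAs with mixed detection, so the share among snoRNAs in it, 21 of 22 (95.5%), was largely fixed by that choice.

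Lists of detected RNAs overlapped by similar shares between replicates and between spore types. The 32 snoRNAs of a replicate 1 and the 33 of a replicate 2 had 22 in common (68.8% and 66.7% of each list). The 36 of α replicate 1 and the 38 of α replicate 2 had 24 in common (66.7% and 63.2%). Between spore types, 23 RNAs were shared in replicate 1 (71.9% of the a list and 63.9% of the α list) and 24 in replicate 2 (72.7% and 63.2%). Detected in both a libraries and no α library were 3 snoRNAs (snR63, snR59 and snR70), and 1 was detected in both α libraries and no a library (snR161). Among the 211 other features of similar sum, 4.74% and 3.32% showed these arrangements, as did 0.383% and 0.213% of all 7050 other listed features. Another 3 were detected in both replicate 2 libraries and no replicate 1 library (snR13, snR39 and snR38). In both replicate 1 libraries and no replicate 2 library there were 2 (snR10 and snR46). These arrangements were shown by 5.69% and 17.1% of the features of similar sum, and by 0.383% and 0.95% of all other listed features. As shares of all 76 snoRNAs, undetected ones included, the 4 counts are 3.95%, 1.32%, 3.95% and 2.63%. The features of similar sum were chosen by a range set from RNAs with mixed detection, so their shares have another base. Pairs that follow neither arrangement also occurred, with 2 RNAs in a replicate 1 and α replicate 2 alone (snR24 and snR8) and 3 in a replicate 2 and α replicate 1 alone (snR47, snR65 and snR80).

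Length went with detection. All 37 snoRNAs under 120 nt belong to the box C/D class, and 2 of them were detected in all 4 libraries (5.41%) and 17 in none (45.9%). Of 19 snoRNAs of 120 to 199 nt, 5 were detected in all libraries and 3 in none. Of 12 with 200 to 299 nt, 3 were detected in all and 0 in none, and of 8 with 300 to 1200 nt, 5 were detected in all (62.5%) and 0 in none. Class and length cannot be told apart under 120 nt. Between 120 and 199 nt, where both classes have members, 2 of 7 box C/D RNAs and 3 of 12 box H/ACA RNAs were detected in all libraries. Short protein-coding genes outside the annotated exons of other genes were detected more often. In the same 4 length ranges, shortest first, all 4 libraries held 16 of 34 (47.1%), 45 of 86 (52.3%), 134 of 169 (79.3%) and 2412 of 2589 (93.2%) of them. Across the 76 snoRNAs, the Spearman correlation of length was 0.61 with the number of libraries and 0.40 with the mean level in TMM-scaled CPM per kilobase of annotated length (CPM per kb). Within the box C/D class (n = 47) these values were 0.40 and 0.32, and within the box H/ACA class (n = 29) 0.42 and 0.12. The RNAs share 4 libraries, so these correlations are descriptions. The longest run of A in the gene had a median of 4 bases both in the 15 snoRNAs detected in all libraries and in the 20 detected in none.

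**Figure D2:**
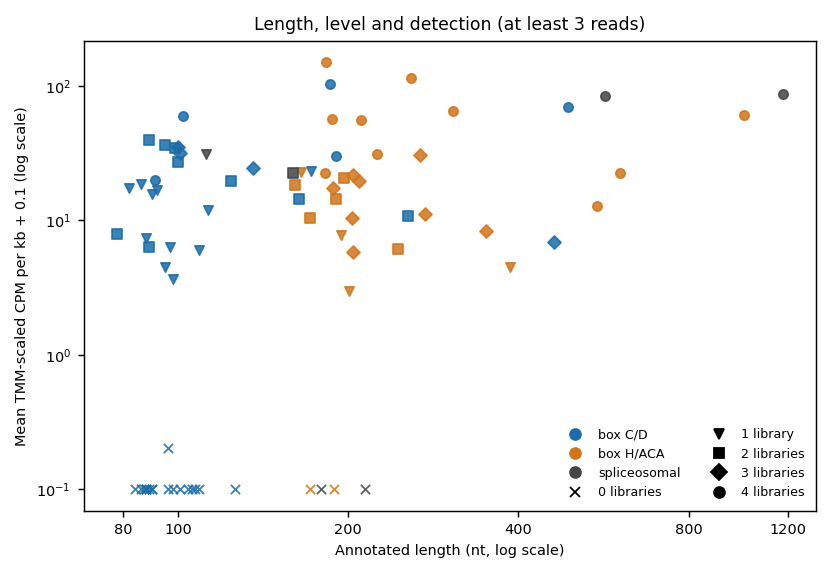
Mean TMM-scaled CPM per kb, plus 0.1, against annotated length, both on log scales, with 1 point per RNA, colors for the class and marker shapes for the number of libraries with at least 3 reads. Crosses at the bottom left are RNAs detected in no library, most of them box C/D RNAs under 120 nt, and circles, detected in all 4 libraries, lie mostly at the top.

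In counted level per length, most snoRNAs lay below the typical mRNA. These levels describe reads in the libraries, and how the RNA selection treated RNAs without a poly(A) tail was not tested. The median over box C/D RNAs was 6.80 CPM per kb and over box H/ACA RNAs 18.3 CPM per kb, against 69.1 CPM per kb over protein-coding genes. When only RNAs detected in all 4 libraries were counted, the medians were 59.3 CPM per kb for 5 box C/D RNAs and 55.7 CPM per kb for 10 box H/ACA RNAs. Together, snR86, snR17a, snR33, snR11, snR83 and snR4 held 52.9% of all snoRNA reads.

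The most abundant snoRNA per length was snR33, a box H/ACA guide for large subunit rRNA, with a mean of 150.0 CPM per kb, above 79.0% of protein-coding genes. It had 1120.3 and 861 reads in a spores, against 1592 and 308.5 in α spores. Next was snR11, another box H/ACA guide for large subunit rRNA, with a mean of 114.9 CPM per kb and 1023.5 and 1449 reads in a spores, against 213 and 869 in α spores. The box C/D RNA snR4, which guides acetylation of small subunit rRNA, had a mean of 103.9 CPM per kb and 1221 and 224 reads in a spores, against 568 and 580 in α spores. In CPM these 3 RNAs overlapped between spore types, and α replicate 2 was lowest for snR33, α replicate 1 for snR11 and a replicate 2 for snR4. Of U3, the snoRNA needed for the first cleavages of the rRNA precursor, the snR17a copy had 1334 and 1143 reads in a spores, against 1281 and 782 in α spores, a mean of 70.0 CPM per kb. The second U3 copy, snR17b, had 210 and 0 reads in a spores, against 136 and 94.5 in α spores. The copies share sequence, and 8.16% of the 50-base words of snR17a occur more than once in the genome, so the split between them is uncertain, and 15.9% of snR17a lies in the exon of IRC13. The box H/ACA RNAs snR83 and snR86, the longest member at 1004 nt, had means of 64.5 and 60.9 CPM per kb. The lowest-ranked of the 8 most abundant, snR18 and snR9, had means of 59.3 and 56.1 CPM per kb. With 86 and 321 reads in a spores, against 442 and 467 in α spores, snR9 was lowest in a replicate 1, and over libraries the ranges of neighbors in this order of CPM per kb overlapped.

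Among the other RNAs of rRNA processing, snR30, a box H/ACA RNA needed for cleavage, had 773.5 and 366 reads in a spores, against 589 and 158 in α spores. The box C/D RNA snR190 had 132 and 9.92 reads in a spores, against 210.1 and 362 in α spores. Its cluster partner U14 (snR128) was at 0 in all 4 libraries, although both sequences come from 1 precursor. The box H/ACA RNA snR10 had 48 and 0 reads in a spores, against 200 and 0 in α spores. Thus U3 and snR30 were detected in every library, while U14 was listed at 0 throughout, as was U5, another RNA that growing cells need, and the reason for these zeros was not tested. The gene of snR10 (chrVII:345986-346230, plus strand) lies to 88.2% within the exon of YGL088W on the same strand.

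Of 8 snoRNAs within introns, 2 were detected in all 4 libraries, 5 in 2 or 3 libraries and 1 in none. In the intron of EFB1, snR18 had 234 and 88 reads in a spores, against 337 and 178 in α spores, and snR44 in RPS22B had 140 and 390, against 467 and 473. In ASC1, snR24 had 74 and 0 reads in a spores, against 0 and 4.17 in α spores. A pair of guides for the same methylation of large subunit rRNA lie in introns of paralogs, snR39 in RPL7A with 0 and 112 reads in a spores, against 0 and 256 in α spores, and snR59 in RPL7B with 6 and 64 reads, against 0 and 0. The libraries with snR39 are both replicate 2, whereas snR59 was found in a spores alone. In TEF4, snR38 had 0 and 149 reads in a spores, against 0 and 220 in α spores, and in NOG2, snR191 had 0 and 114, against 212 and 82. In IMD4, snR54 was at 0 throughout. The 8 host mRNAs themselves had at least 897 reads in every library, so intronic RNAs at 0 had hosts that were detected. The 17 RNAs of 5 shared precursors were detected as follows: 2 in all 4 libraries (snR190 and snR53), 6 in 1 or 2 and 9 in none. In the cluster of snR72 to snR78, 7 RNAs within 1374 nt, snR72, snR76 and snR77 were each detected in 1 library and the other 4 were at 0. All 3 RNAs of the snR57, snR55 and snR61 cluster were at 0.

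The spliceosomal RNAs were uneven. U1 (snR19) had 1895 and 667 reads in a spores, against 4479 and 298 in α spores, with a mean of 83.4 CPM per kb, above 58.7% of protein-coding genes. U2 (LSR1) had 5696 and 1887 reads in a spores, against 6565 and 884 in α spores, with a mean of 86.9 CPM per kb. Both were lower in the replicate 2 libraries than in the replicate 1 libraries of either spore type. U4 (snR14) had 0 and 368 reads in a spores, against 54 and 0 in α spores, and U6 (snR6), its base-pairing partner in the spliceosome, had 0 and 0.14 reads, against 1.25 and 358. The libraries with U4 and with U6 at the floor or above were therefore different ones. U5 was at 0 in all 4 libraries in both its entries. The genes of these 3 RNAs are shown because they were undetected in at least 2 libraries: U6 at chrXII:366235-366346 (plus strand), U4 at chrV:167427-167586 (minus strand) and the long form of U5 at chrVII:939459-939672 (minus strand). Capitals in U5 mark the part that the short form shares.
snR6 (U6): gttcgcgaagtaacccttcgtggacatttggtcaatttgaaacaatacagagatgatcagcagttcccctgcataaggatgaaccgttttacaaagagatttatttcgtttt
snR14 (U4): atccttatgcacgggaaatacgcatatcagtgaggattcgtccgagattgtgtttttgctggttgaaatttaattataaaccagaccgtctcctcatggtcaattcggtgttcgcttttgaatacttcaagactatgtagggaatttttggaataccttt
snR7-L (U5, long form): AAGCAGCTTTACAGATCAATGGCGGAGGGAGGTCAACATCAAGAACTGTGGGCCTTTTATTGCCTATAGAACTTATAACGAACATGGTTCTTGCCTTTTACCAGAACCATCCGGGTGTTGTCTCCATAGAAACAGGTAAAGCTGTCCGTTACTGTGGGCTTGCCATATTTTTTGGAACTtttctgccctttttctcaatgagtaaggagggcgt
The short form is the first 179 bases of the long form, so each read on it lies in both entries. How the counting treated reads on more than 1 feature is not given in the sources used here. Among features placed on the annotation that lie to at least 95% in an exon of another feature, 73 of 91 outside the members were at 0 in all libraries (80.2%), as was snR7-S. Of 81 members, 76 lay outside other exons of this annotation. At 0 in all libraries were 17 of these (22.4%), against 56 of 5789 other features so placed (0.967%). The annotation placed 6169 of the 7132 listed features. Overlaps of members with the features not placed, dubious open reading frames among them, were not examined. The part of overlap in the U5 result and in the other zeros was not tested.

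No member differed between a and α spores at a false discovery rate (FDR) under 0.05. Of 81 members, 41 passed the filter on low counts and were tested with 6140 features in all, of which 1 feature, hph, was called (0.0163%). The study reported hph, mCherry, MATa1 and YAR064W as different at this FDR, though it did not take YAR064W for a real difference. Of these, hph alone was called here, so features marking the sort could also go uncalled. Tests were likelihood ratio tests in edgeR, blocked by replicate number and adjusted after Benjamini and Hochberg. An unadjusted p under 0.05 was found for 5 of 41 members, against 279 of all 6140 features. With the quasi-likelihood test 0 members were called. DESeq2 called 2 of 41, snR161 and snR63, and 222 of all 6140 features (3.62%). The smallest p belonged to snR161, a box H/ACA guide for small subunit rRNA, with 0 and 0 reads in a spores, against 202 and 186 in α spores (adjusted p = 0.338 in edgeR, 0.0147 in DESeq2). It was at least 55.0-fold and 67.7-fold lower in a spores in replicates 1 and 2, against the floor of 3 counts per library. Such bounds cover counting error only and not the spread between replicates. The box C/D guide snR70 had 128 and 163 reads in a spores, against 0 and 0 in α spores, at least 52.3-fold and 49.8-fold higher (adjusted p = 0.396 in edgeR). Next was snR63, a box C/D guide, with 202 and 146 reads in a spores, against 0 and 0.58 in α spores (adjusted p = 0.559 in edgeR, 0.0255 in DESeq2). The groups did not overlap for these 3 RNAs, which were chosen for their p among RNAs that often alternate between 0 and more than 40 reads. They passed the filter through the libraries of 1 spore type alone, so that a difference was fixed by the filter. Next to snR161, the members lower in a spores with the smallest p were snR32 and snR190. Their unadjusted p was 0.241 and 0.244 in edgeR's likelihood ratio test, so neither was near the threshold. Reads of snR32 were 82 and 0 in a spores, against 142 and 192.5 in α spores. The adjusted p of snR11 and snR34, the remaining members with an unadjusted p under 0.05, was 1.0 in edgeR.

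Where an RNA was detected in all libraries, a and α spores could be compared within each replicate. Of 16 such members, 10 differed in the same direction in both replicates, 4 higher in a spores and 6 lower. The share over all features is not given, so this count is a description only. U3 (snR17a) was among the steadiest, with log2 ratios of a over α spores of 0.35 in replicate 1 and 0.42 in replicate 2 (mean 0.39, adjusted p = 1.0 in edgeR). U1 (snR19) had log2 ratios of −0.95 and 1.04 in replicates 1 and 2, so the 2 replicates went in opposite directions. For snR190 they were −0.38 and −5.30. The median SD of the 2 log2 ratios over the 16 members was 1.05.

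Between the replicates, made from separate sporulations and sorts, more features were called. Fewer spores of one kind and less RNA per spore cannot be told apart in such bulk samples. In the same model, 1604 of 6140 features differed between replicate 2 and replicate 1 (26.1%), 750 of them higher (12.2%) and 854 lower (13.9%) in replicate 2. Among 41 members tested, 8 were called (19.5%), 5 higher and 3 lower, a share not above that of all features. Of these 8, 6 passed the filter through the libraries of 1 replicate alone, and 40 members were not tested. The call count depended on the test and on single libraries. The quasi-likelihood test called 2 of 41 members, snR86 and snR19, and 18.8% of all features. Leaving out α replicate 1 left 1 member called of 53, snR86, and 833 features in all (13.1%). Leaving out a replicate 2 gave 14 calls among 56 members and 1616 in all (25.5%).

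Among the called members, the most even difference was that of snR86, a box H/ACA guide for large subunit rRNA. It had 2729.7 reads in a spores and 2234 in α spores in replicate 2, against 1184 and 1234 in replicate 1, so the replicates did not overlap. Replicate 2 was 2.95-fold higher in a spores and 3.10-fold higher in α spores (log2 fold change 1.60 ± 0.0502, SD of 2 log2 ratios, adjusted p = 0.00206 in edgeR). U1 (snR19) had 667 reads in a spores and 298 in α spores in replicate 2, against 1895 and 4479 in replicate 1, with log2 ratios of −1.15 in a spores and −3.13 in α spores (fitted log2 fold change −2.14, SD 1.40, adjusted p = 0.00495 in edgeR, 0.237 without α replicate 1). U2 (LSR1) likewise had 1887 reads in a spores and 884 in α spores in replicate 2, against 5696 and 6565 in replicate 1. Its log2 fold change was −1.68 (SD 0.622, n = 2, adjusted p = 7.28e-05 in edgeR). Both U1 and U2 were thus lower in replicate 2 of either spore type. For snR11, with 1449 reads in a spores and 869 in α spores in replicate 2, against 1023.5 and 213 in replicate 1, the log2 fold change was 1.83 (adjusted p = 0.0684 in edgeR, 0.00657 in DESeq2). It was 0.57 without α replicate 1, 1.02 without a replicate 2 and 3.11 without a replicate 1 (adjusted p = 0.725, 0.457 and 0.0159 in edgeR).

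The other 6 calls were of RNAs at or near 0 in 1 of the replicates. In replicate 2, snR38 had 149 reads in a spores and 220 in α spores, against 0 and 0 in replicate 1, at least 63.6-fold and 126-fold higher. The intronic snR39 had 112 and 256 reads in replicate 2, against 0 and 0 in replicate 1, at least 47.8-fold and 146-fold higher in a and α spores. With 208 and 59 reads in replicate 2, against 0 and 0 in replicate 1, snR13 was at least 88.7-fold and 33.7-fold higher. These 3 are box C/D guides for large subunit rRNA, and so is snR62, with 223 and 153.5 reads in replicate 2, against 0 and 3 in replicate 1. In the other direction, the box H/ACA RNA snR46 had 0 and 0 reads in replicate 2, against 130 and 548 in replicate 1, at least 33.9-fold and 107-fold lower. For snR10 the values were 0 and 0 reads in replicate 2, against 48 and 200 in replicate 1, at least 12.5-fold and 38.9-fold lower. These 6 RNAs passed the filter only through the replicate in which they were high, so a difference was fixed by the filter. Their calls are given as a description, and the bounds on their folds cover counting error only. In the quasi-likelihood test and without α replicate 1 none of the 6 was called.

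**Figure D3:**
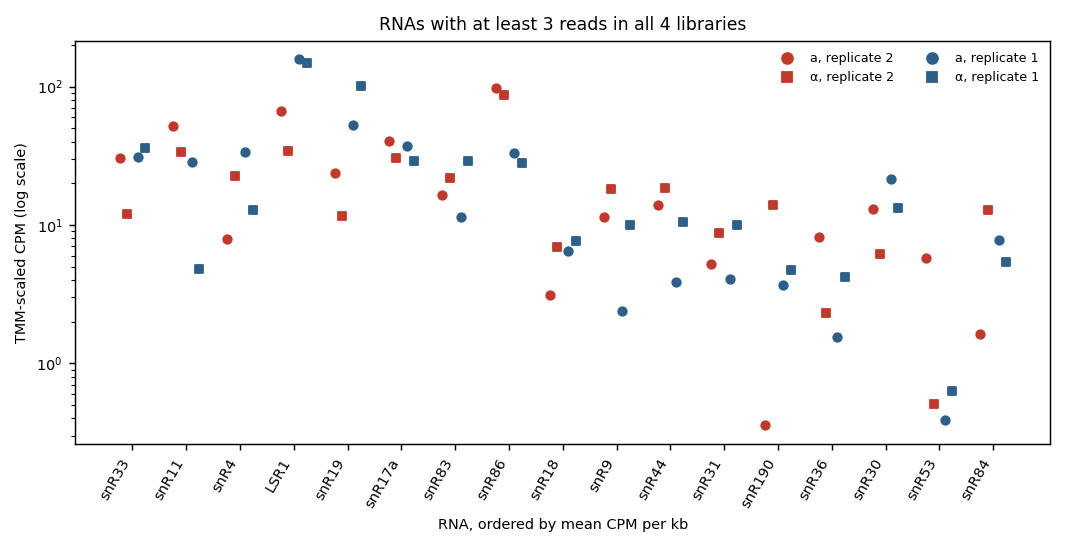
TMM-scaled CPM (log scale) of the 17 RNAs with at least 3 reads in all 4 libraries (LSR1 is U2), 1 point per library, with replicate 2 left of replicate 1 for each RNA, circles for a spores and squares for α spores. The replicate 2 points of snR86, snR11, snR9 and snR44 lie above their replicate 1 points. Those of LSR1, snR19, snR30 and snR33 lie below, and the other RNAs overlap.

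Summed over all snoRNAs, replicate 2 held 400.4 CPM in a spores and 411.9 in α spores, against 295.5 and 320.3 in replicate 1. Without snR86 the sums were 303.3 and 325.2 CPM in replicate 2, against 262.6 and 292.3 in replicate 1. Among the 16 members detected in all libraries, 9 differed in the same direction in both spore types. In replicate 2, 5 of these were higher and 4 lower, so the RNAs did not move one way together. These counts, too, are descriptions without the share over all features.

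The proteins that bind and process these RNAs were examined together with the 8 host genes as lists of 54 genes, of which 52 were tested. Between a and α spores 0 of them were called in edgeR's likelihood ratio and quasi-likelihood tests. In each test 3 of 52 had an unadjusted p under 0.05, against 279 and 182 of all 6140 features. DESeq2 called 1 of 52, against 222 of all 6140 features. Between replicates, 20 were lower and 0 higher in replicate 2, against 13.9% of all features lower and 12.2% higher. Without the host genes, 14 of 44 were lower. The quasi-likelihood test called 12 of 52 lower and 0 higher (9.87% and 8.96% of all features). DESeq2 called 24 lower and 2 higher (22.6% and 21.5% of all features). Leaving out α replicate 1 gave 10 of 53 lower and 0 higher (7.2% and 5.93% of all features). There were 2 higher without a replicate 2 and 1 without a replicate 1 (11.4% and 8.48% of all features). The genes of all 4 core proteins of box C/D particles fell in replicate 2, of which 2 were also called in the quasi-likelihood test and 2 without α replicate 1. The methyltransferase gene NOP1 had 3254 reads in a spores and 3373 in α spores in replicate 2, against 6715 and 10782 in replicate 1 (log2 fold change −0.79, adjusted p = 0.0251 in edgeR). The scaffold genes NOP56 and NOP58 had log2 fold changes of −2.11 and −2.38, and SNU13, whose product binds the kink of the C and D boxes and also U4, had −1.07. Of the 4 core proteins of box H/ACA particles, CBF5, the pseudouridine synthase, fell (log2 fold change −1.41), as did GAR1 (−1.86), while NHP2 and NOP10 were not called (log2 fold changes −0.69 and −0.19). Reads of the 8 core genes ranged from 563 to 12517 over libraries, so all were far above the floor.

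Of 24 genes for assembly and processing, 7 fell in replicate 2 and 0 rose. With the quasi-likelihood test 3 fell, without α replicate 1 there were 2, without a replicate 1 and without a replicate 2 there were 4 each, and 1 rose with DESeq2 and without a replicate 2. The 7 genes are given with their fitted log2 fold changes. They include NAF1 (log2 fold change −1.88) and SHQ1 (−1.73), which act in assembly of box H/ACA particles. TAH1 (−2.48) and RVB1 (−0.98) belong to the chaperone complexes of box C/D assembly. SEN1 (−1.33) encodes the helicase of snoRNA transcription termination, and MTR4 (−1.43) and AIR1 (−0.89) encode subunits of the TRAMP complex, which hands RNAs to the nuclear exosome. RNT1, the RNase III that cuts snoRNA precursors, was not called (−0.16). Of 12 tested genes for Sm and Lsm proteins, the rings on spliceosomal RNAs, 1 was called. This was LSM5, with 0 and 0 reads in replicate 2, against 94 and 21 in replicate 1. Other calls in this list came with other settings. DESeq2 called 1 of 12 higher and 2 lower, and 1 of 11 was higher with at least 10 reads in every library. LSM5 passed the filter through replicate 1 alone, and it was not called with the quasi-likelihood test, with DESeq2, without a filter or without any 1 of the libraries. Of 8 host genes, 6 fell: ASC1 (−2.67), RPL7A (−2.38), RPS22B (−1.34), NOG2 (−1.13), IMD4 (−0.88) and EFB1 (−0.85). Of the 5 intronic RNAs tested, snR39 alone was called together with its host, with RPL7A lower and snR39 higher in replicate 2. The direction of snR39 was fixed by the filter, which it passed through replicate 2 alone, and the quasi-likelihood test did not call it. Of the other stable RNAs, the signal recognition particle RNA SCR1, the RNase P RNA RPR1 and the RNase MRP RNA NME1 were not called in either comparison.

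**Figure D4:**
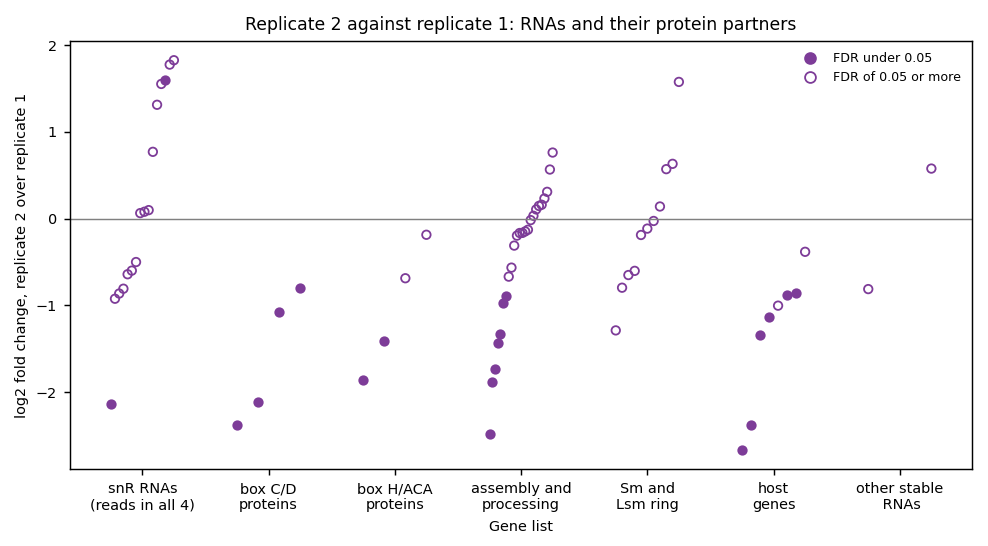
Log2 fold change of replicate 2 over replicate 1 (edgeR) for snR members and for genes of their proteins, hosts and other stable RNAs, limited to features with at least 3 reads in all 4 libraries (which leaves out LSM5). Filled points have an FDR under 0.05; the 4 box C/D protein genes all lie below 0 and are filled, while the 16 snR RNAs spread on both sides of 0, with snR86 and snR19 filled.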

How the data were processed

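Reads, in pairs, were mapped by the authors to the S288C genome (R64), extended by the mCherry and hph sequences, using STAR 2.7.3a. Features were quantified by featureCounts (Subread) for read pairs, and the authors deposited estimated counts without normalization. Between 61.7% and 69.3% of non-zero values per library were fractional, and 29.5% to 32.5% of those on members. Settings for strand, overlap and reads with several positions, and any removal of duplicates, are not given in the sources used here. SK1 reads were thus counted on S288C genes. Values were rounded to whole numbers for count models.

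Tests used R 4.3.3 and edgeR 4.0.16: filterByExpr, TMM, a generalized linear model with spore color and replicate number, likelihood ratio tests, prior count 0.125 and Benjamini-Hochberg FDR of 0.05 over all 6140 features. The model with batch follows the study. Deviations from the spore type means were correlated between same-numbered libraries (r = 0.373 over 6140 features), and the pairing comes from the repeated sporulation and sort. Nothing else shows how independent the 2 replicates were, and p-values measure the spread among 4 libraries. Alternatives were the quasi-likelihood test, DESeq2 1.42.0, other scalings, filters, thresholds and prior counts, no replicate block and leaving out each library. A filter of 10 CPM in any library was added after seeing the data. The scripts were tested on simulated data.

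All 82 RNAs were matched by name to RefSeq's R64 annotation, which gave coordinates, lengths and class; snR17a and snR17b were classed as box C/D by general knowledge. Members and lists were chosen with earlier results of these data known. Named were the spliceosomal RNAs, the 6 snoRNAs listed for rRNA processing, the 8 intronic RNAs, the 8 most abundant per length, RNAs called in either comparison, the 3 of smallest p in each direction, up to 6 of uneven detection by largest total, and list genes past the FDR; others were named after their values were seen. TLC1 was not analysed here. Tables and figures were made in Python 3.11.15 with numpy 2.4.6, pandas 2.3.3, scipy 1.17.1 and matplotlib 3.10.9.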

Additional observations from a re-analysis of the deposited data

How the results depend on the processing

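Of 236 alternative values for single RNAs, 202 kept their direction and their side of the threshold. Part of this was fixed in advance, since RNAs with reads in 1 group alone could not change direction. Between a and α spores, members called numbered 2 with DESeq2 and 0 to 1 with each library left out (1, snR49, without α replicate 1). All features called numbered 222 with DESeq2, 5 with column totals alone, 5 with the filter of 10 CPM in any library and 2 to 29 with each library left out. Without the replicate block, all features called numbered 1 with the likelihood ratio test and 0 with the quasi-likelihood test, and 0 members were called in either, as with the block. Between replicates, members called numbered 2 with the quasi-likelihood test, 3 of 16 with at least 10 reads in every library, and 1 to 14 with each library left out; all features called numbered 2706 with DESeq2 and 833 to 1616 with each library left out. The log2 fold change of snR19 between a and α spores, 0.04 with the block, was −0.57 without the replicate block in both tests, and lay between −1.41 and 1.72 with each library left out. That of LSR1, 0.53 with the block, lay between −0.48 and 1.71 with each library left out. The median level was 59.3 CPM per kb for box C/D and 55.7 for box H/ACA RNAs when only those detected in all 4 libraries were counted. The cause of these shifts was not tested, beyond fewer features tested under the stricter filters. At this depth a count of 0 allows up to 0.116 CPM, a bound that covers counting error only. RNAs often alternated between 0 and more than 40 reads, so the bound does not limit their level in spores. With 2 replicates, such RNAs also limit what can be called.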
